A study of Mus musculus with 27 samples.

Results

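Ccl2, Ccl7, Ccl8, Ccl12 and Ccr2 were followed here as a set of 5 genes: the 4 chemokines of the mouse monocyte chemoattractant protein group and Ccr2, the receptor through which most of them draw monocytes. The set is a list of names with no threshold on measured values, drawn up with earlier results of these data known, and all 5 genes were found among the 48440 gene identifiers of the macrophage RNA counts and among the 33696 genes of the single cell matrices. The samples came from MC38 tumours (a mouse colon carcinoma line) grown in mice whose Ogt gene is floxed (WT below) and in floxed mice that also carried Lyz2-cre (KO below). Ogt encodes the enzyme that attaches O-GlcNAc to proteins, and Lyz2-cre acts in cells that use the lysozyme promoter: monocytes, macrophages, neutrophils and part of the dendritic cells. Both groups carry the floxed allele, so that cre and its insertion in Lyz2 come only with the deletion. Tumour-associated macrophages gave 3 WT and 3 KO RNA libraries, and immune cells labelled CD45 gave 1 WT and 1 KO single cell matrix, although the labels name a pair of CD45 samples per genotype. The labels give neither the age of the mice nor whether animals were pooled, so p-values measure the spread between these libraries, which may be technical.

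CC chemokines are small secreted proteins that bind G protein-coupled receptors on leukocytes and draw the cells towards the source. Ccl2, Ccl7 and Ccl12 bind Ccr2, which monocytes need to leave the bone marrow and to enter inflamed tissue and tumours, and Ccr2 falls as monocytes turn into macrophages. Ccl7 also binds Ccr1 and Ccr3, and mouse Ccl8 has been described chiefly as a ligand of Ccr8. In tumours the ligands are made by myeloid cells, fibroblasts and the tumour cells themselves.

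The RNA libraries held 7032540 to 32406170 counts, and the matrices held 9712 WT and 9767 KO cells after filtering, with 23 cell barcodes found in both. Ogt RNA was lower in KO (-0.72, SE 0.0953, adjusted p = 2.978e-09), and Lyz2 fell 46.2-fold, so a difference between the genotypes cannot be told apart from an effect of cre or of the lost Lyz2 RNA. Defining macrophage markers were present in every library: the 12 listed summed to 12114 to 12393 CPM in WT and 11319 to 11523 CPM in KO (CPM, library counts scaled to a common total after TMM normalisation). Of these 12, 6 were higher and 5 lower in KO at an adjusted p below 0.05 (median log2 fold change 0.05).

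The 4 chemokine genes lie side by side on chromosome 11 in the order Ccl2, Ccl7, Ccl12, Ccl8, with Ccl11 (eotaxin) between Ccl7 and Ccl12, and their starts span 79.614 kb (mm10, GENCODE vM10 models, all on the plus strand). Ccl2 (ENSMUSG00000035385.5, chromosome 11, 82035571 to 82037453) and Ccl7 (ENSMUSG00000035373.2, chromosome 11, 82045712 to 82047525) form one end of the cluster. Ccl12 (ENSMUSG00000035352.3, chromosome 11, 82101845 to 82103400) and Ccl8 (ENSMUSG00000009185.2, chromosome 11, 82115185 to 82116799) form the other. Ccr2 (ENSMUSG00000049103.13, chromosome 9, 124101950 to 124113557) lies apart from them, beside other receptor genes. The antisense model Gm17268 overlaps Ccl2, shares no exon base with it and had 0 counts in all 6 libraries. Ccl12 and Ccl8 are the neighbours whose RNA peaked in the same single cell clusters below, and the 250 bases before their starts are shown for that reason, from RefSeq on GRCm38.p6 (plus strand, 5′ to 3′, at chr11:82101595-82101844 and chr11:82114935-82115184), with the TATAAA letters in capitals.
Ccl12: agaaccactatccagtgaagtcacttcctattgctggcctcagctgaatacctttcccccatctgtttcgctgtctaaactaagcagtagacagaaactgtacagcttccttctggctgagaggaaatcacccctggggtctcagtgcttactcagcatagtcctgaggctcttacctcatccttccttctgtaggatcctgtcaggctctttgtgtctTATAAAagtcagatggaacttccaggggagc
Ccl8: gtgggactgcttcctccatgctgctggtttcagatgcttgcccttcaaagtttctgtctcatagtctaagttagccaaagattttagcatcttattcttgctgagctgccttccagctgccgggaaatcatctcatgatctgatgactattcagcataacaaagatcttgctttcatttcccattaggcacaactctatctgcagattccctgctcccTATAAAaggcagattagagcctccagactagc
TATAAA began 31 bases before the start of Ccl12 and 32 before that of Ccl8, and 12.4% of the 32851 RefSeq windows of this length hold it on either strand. The upstream windows of Ccl12 and Ccl8 had 65.2% identical bases in their alignment (150 of 230), against 59.5% for Ccl12 with Ccr2. GGAAGT, the core bound by ETS factors, occurred on the minus strand of the Ccl12 window, 228 and 14 bases before the start, and in neither other window (in 19.7% of all windows). TGANTCA (AP-1, in 6.75% of all windows), TTGCNNAA (C/EBP, 9.56%), GCGNGGGCG (EGR, 4.70%) and the NF-kB motif (0.356%) were not found on either strand of the Ccl12, Ccl8 and Ccr2 windows. The Ccr2 window (chr9:124101933-124102182) precedes its RefSeq start and lies mostly inside the GENCODE model above, which starts at 124101950. The Ccr2 identity and motif values therefore do not describe the bases before that GENCODE start. Ccl2 and Ccl7 had no entry among these RefSeq windows and were not searched.

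In the macrophage libraries the ligands did not move as one: Ccl2 and Ccl7 fell in KO, Ccl12 rose, and Ccl8 did not pass the test. The receptor Ccr2 rose. Of the 5 genes, 4 were called at an adjusted p below 0.05 by edgeR's quasi-likelihood test with Benjamini-Hochberg adjustment over 12939 genes. In this comparison 37.7% of all tested genes were called, 18.8% higher and 18.9% lower, so a call by itself sets none of them apart. Whether fewer cells of a kind or less RNA per cell lay behind a lower level cannot be told apart in libraries made from many cells.

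Ccl2, the founding ligand of Ccr2, stood at 285, 299.98 and 284 CPM in the WT libraries and at 197, 195 and 207 CPM in the KO libraries. The 3 KO values lay close together and all below the lowest WT value, a fall of 1.45-fold (edgeR: -0.54, SE 0.0390, adjusted p = 1.752e-19, on the log2 scale, with 3 libraries a group). Ccl7, which shares Ccr2 and also engages Ccr1 and Ccr3, stood at 119.9, 115 and 131 CPM in WT and at 78.8, 78.3 and 85.8 CPM in KO. Its groups did not overlap either, and the fall was of the same order, 1.5-fold (-0.59, SE 0.0617, adjusted p = 1.046e-12).

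Ccl12, a ligand of Ccr2 found in mice and not in humans, went the other way, from 50.4, 46.7 and 50.9 CPM in WT to 76.1, 73.3 and 77.4 CPM in KO. All KO libraries exceeded all WT libraries, by 1.53-fold on average (0.61, SE 0.0781, adjusted p = 7.417e-10). Ccl8 stood at 20.5, 17.7 and 20.8 CPM in WT and 16.2, 12.4 and 18.4 CPM in KO. The highest KO library exceeded the lowest WT library, and the difference did not pass the test (-0.33, SE 0.146, adjusted p = 0.07195, unadjusted 95% interval -0.61 to -0.04). It passed without WT replicate 2 (adjusted p = 0.03979) and without KO replicate 3 (adjusted p = 0.03482). 

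Ccr2 rose from 157, 170.3 and 169 CPM in WT to 245, 233 and 254 CPM in KO, with no overlap (1.48-fold, 0.57, SE 0.0438, adjusted p = 3.394e-18). The groups were apart for 4 of the 5 genes, as they were for 46.5% of all tested genes.

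**Figure D1:**
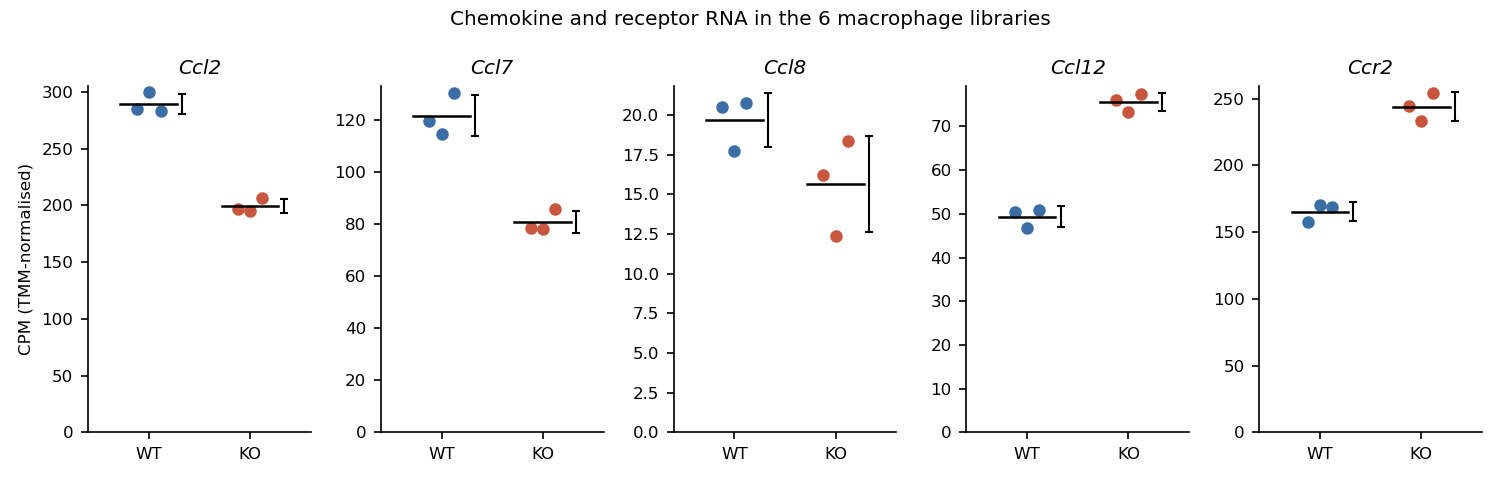
Level of each gene (CPM, linear axes from 0) in the 3 WT and 3 KO macrophage libraries; points are libraries, lines are means and bars are ± SD. Ccl2 and Ccl7 are lower and Ccl12 and Ccr2 higher in all 3 KO libraries, while the Ccl8 groups overlap.

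Per length of transcript, Ccl2 was the leading ligand in WT with 255 ± 7.91 FPKM, followed by Ccl7 with 152 ± 9.94, Ccl12 with 91.9 ± 4.34 and Ccl8 with 38.5 ± 3.32 FPKM (SD, n = 3). Ccr2 had 25.9 ± 1.11 FPKM, and each step in this order was larger than the SDs of both neighbours. In KO a pair of places changed: Ccl12 (141 ± 3.87 FPKM) stood above Ccl7 (101.1 ± 5.23) and below Ccl2 (175 ± 5.53), and Ccr2 (38.2 ± 1.64) stood above Ccl8 (30.6 ± 5.91) by little more than the SD of Ccl8. Within a library, Ccl2 exceeded Ccl12 by 2.63 to 3.03 times in WT and by 1.22 to 1.26 times in KO. The share of Ccl12 in the summed FPKM of the 4 ligands was 16.4 to 17.6% in the WT libraries and 30.8 to 31.9% in the KO libraries. The ratio of Ccl7 to Ccl2 kept to 0.545 to 0.654 in WT and 0.568 to 0.590 in KO, with overlapping ranges.

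Markers of cells that can carry Ccr2 moved in the same libraries. Of 10 classical monocyte markers 6 rose and 1 fell, none was at 0, and their sum was 652 to 656 CPM in WT and 920.3 to 942 CPM in KO. The other 3 were not called, and the median log2 fold change of the 10 was 0.29. Ly6c2 (1.45) and Chil3 (1.74), picked after their values were seen, lay well above that median. All 6 CD8 T cell markers rose, none at 0, with sums of 78.5 to 80.4 CPM in WT and 169 to 178 CPM in KO. Of 6 measured CD4 T cell markers, with Cd40lg below the filter, 5 rose (sum 89.0 to 95.3 CPM in WT, 151 to 163 CPM in KO). Cd3d, Cd3e, Cd3g and Trac are in both the CD8 and the CD4 list, so most of the CD4 rises repeat the CD8 ones. Cd3e is also in the regulatory T cell list below, so the counts and sums of these lists overlap. Of 9 non-classical monocyte markers, none at 0, 4 rose and 1 fell, while their sum was lower, at 1679.7 to 1698 CPM in WT and 1587 to 1615 CPM in KO. Of 6 regulatory T cell markers, none at 0, 3 rose (sum 84.7 to 87.3 CPM in WT, 111 to 115 CPM in KO), and of 6 measured NK markers, with Ncr1 below the filter, 3 rose and 3 fell (sum 43.0 to 45.5 CPM in WT, 41.9 to 48.0 CPM in KO). Their part in the rise of Ccr2 was not tested. Beside the ligands, 3 of 7 measured fibroblast or endothelial markers rose (sum 66.2 to 81.4 CPM in WT, 97.0 to 108 CPM in KO, none at 0, Dcn below the filter), and 5 of 6 measured markers of migratory dendritic cells fell (sum 666 to 681 CPM in WT, 361 to 369 CPM in KO, none at 0). Their part in the ligand values was not tested either.

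Other genes of the chemokine pathway gave a background to the set. Among the other receptors, Ccr1, which binds Ccl7, fell from 277 ± 5.5 to 185 ± 3.94 CPM (-0.58, SE 0.0395, adjusted p = 8.924e-21). Ccr8, the receptor of Ccl8, was barely present, with 3.23 ± 1.10 CPM in WT and 3.08 ± 1.39 CPM in KO (adjusted p = 0.9557). Ccr3 and Ackr2 were below the filter, and Ackr1, the Duffy scavenger receptor, had no count in any library. Of 10 other CC ligands measured, 6 fell and 1 rose (median log2 fold change -0.48, against -0.00128 over all tested genes), among them Ccl22 (-1.47), which draws regulatory T cells, Ccl24 (-1.13), an eotaxin, and Ccl9 (-0.69) and Ccl6 (-0.60), ligands of Ccr1. The 1 that rose was Ccl3 (0.20), an inflammatory ligand of Ccr1.

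Of 17 measured inducers and transcription factors that act on these chemokines 9 fell and 6 rose (median -0.07). Cebpb, a transcription factor of inflammatory genes in myeloid cells, fell by 2.28 on the log2 scale, Il1b and Il1a, which signal to many Ccl2-producing cells, fell by 0.77 and 1.88, and Nfkbia, an inhibitor and target of NF-kB, fell by 0.73. Of 14 genes that act downstream of Ccr2, 5 rose and 2 fell (median 0.06), all by less than Ccr2 itself: Gng2, a G protein subunit, rose by 0.33 and the receptor kinase Grk2 by 0.15, while the arrestin Arrb1 fell by 0.36 and the GTPase Rac2 by 0.18. Of 9 measured receptors and adhesion molecules of monocyte traffic 7 rose (median 0.27), including Csf1r (0.43) and the integrin Itgal (0.53), and Cxcr4 (-0.43) and Itgam (-0.60) fell.

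The single cell matrices show which cells carried these RNAs. Cells were clustered without the 5 genes and the other CC ligands among the variable genes, and levels are UMIs (counted molecules) as CPM of a cluster's summed UMIs, with exact Poisson 95% intervals that cover counting error only. Of 21 clusters, 6 were of the monocyte and macrophage lineage. Clusters 6 (led by Vcam1, with C1q genes), 12 (Cd63, C1qa and Pf4) and 3 (Mmp12 and MHC class II genes) were macrophage-like. Clusters 2 (Chil3 and Ace) and 4 (Ifit2 and other interferon-induced genes) were monocyte-like. Cluster 1, led by Arg1, Gab1 and F13a1, scored highest for macrophage markers but had a monocyte marker among its leading genes and was left unnamed.

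These 6 clusters held 90.8% of the Ccl2 UMIs of the WT matrix and 94.8% of the KO matrix, 94.9% and 95.9% of those of Ccl7, 90.5% and 96.5% for Ccl8, and 97.9% and 97.9% for Ccl12. Ccr2 was spread more widely: the same clusters held 50.2% and 45.6% of its UMIs, T-like clusters 25.3% and 36.9%, and NK-like clusters 23.2% and 15.7%. In lymphocytes, where free RNA can give UMIs of a gene the cell does not use, ligand levels were low: T-like cells had 19.2 and 12.6 CPM of Ccl2, 3.76 and 4.76 of Ccl7, 0.743 and 0.885 of Ccl8 and 2.48 and 5.99 of Ccl12. Ccl12 UMIs were found in 1.53% of WT and 3.44% of KO T-like cells (median depths 5088 and 5738 UMIs), against 30.5% and 42.9% of macrophage-like cells (8087 and 8978 UMIs). With each cell thinned to 1000 UMIs, which left out no cell, the macrophage-like shares were 12.7% (11.1 to 14.4) and 22.5% (20.3 to 24.9), and the T-like shares 0.376% (0.200 to 0.643) and 0.697% (0.464 to 1.01), with exact binomial 95% intervals. For Ccl2 the thinned shares were 35.4% (33.1 to 37.7) and 31.8% (29.3 to 34.4) of macrophage-like cells and 1.82% (1.40 to 2.33) and 1.49% (1.14 to 1.92) of T-like cells.

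**Figure D2:**
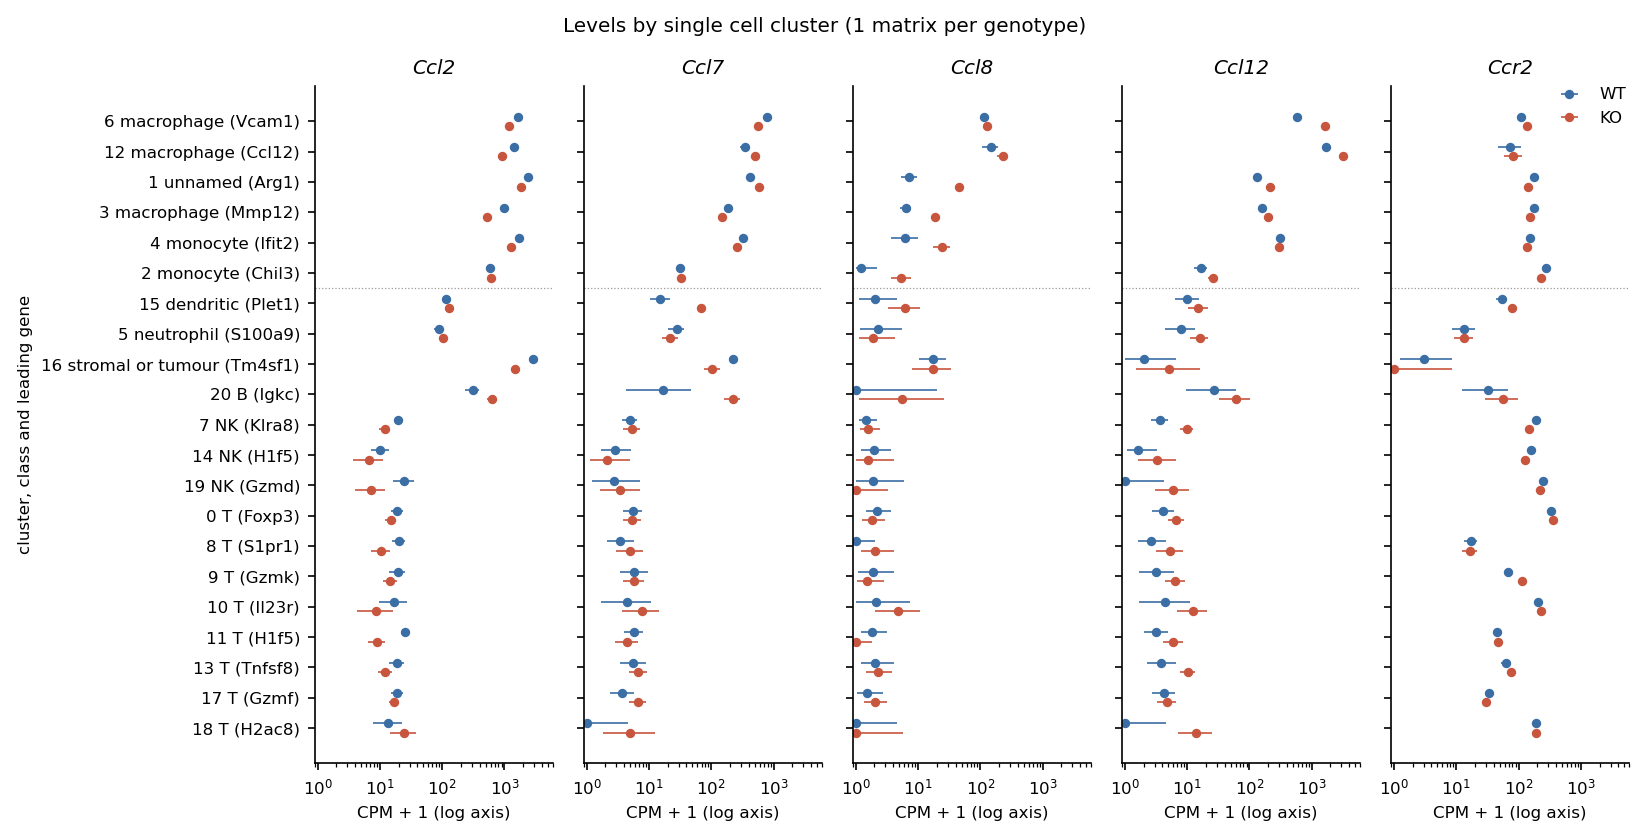
Level of each gene (CPM plus 1, log axis) in the 21 single cell clusters of the WT and KO matrices; bars are exact Poisson 95% intervals, and the dotted line sets the 6 monocyte and macrophage clusters apart. The ligands are high above the line and in the stromal or tumour-like cluster 16 (Ccl2 and Ccl7), whereas Ccr2 is also high in the Foxp3 cluster 0 and in NK clusters.

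Ccl2 was present throughout the lineage, and within it highest in the Arg1 cluster 1, with 2369.5 CPM in WT (95% interval 2331 to 2408) and 1848 CPM in KO (95% interval 1819 to 1877). The interferon cluster 4 followed with 1701 and 1263 CPM, then clusters 6 (1638 and 1188), 12 (1441 and 925) and 3 (996 and 527). The intervals of clusters 4 and 6 overlapped in both matrices. The Chil3 monocytes of cluster 2 had 589 and 609 CPM. The small stromal or tumour-like cluster 16, with Col1a1 and other matrix genes (67 WT and 33 KO cells in samples labelled CD45), had the highest WT level of all, 2898 CPM, and 1470.3 CPM in KO. It held 6.59% and 2.09% of all Ccl2 UMIs. Neutrophil-like cells had 87.4 and 104 CPM, dendritic-like cells 115 and 127, NK-like cells 16.7 and 9.23, and the 33 WT and 41 KO B-like cells 306 and 622, too few cells to describe a type.

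Ccl7 covered a narrower range of cells. It reached 794 CPM in WT and 560.2 in KO in cluster 6 and 416 and 587 in cluster 1. Cluster 12 had 351 and 511, cluster 4 had 319.7 and 254, cluster 3 had 188 and 149.9, and the monocytes of cluster 2 stood at 30.6 and 32.2. Outside the lineage the stromal or tumour-like cluster had 225 and 103.1 CPM, dendritic-like cells 14.2 and 68.8, and neutrophil-like cells 26.9 and 20.8. Its UMIs were concentrated in few cells: the tenth of monocytes and macrophages with the most Ccl7 held 94.3% of it in WT and 85.3% in KO, against 64.0% and 61.4% for Ccl2. After thinning to 1000 UMIs per cell, 84.1% of the 371 WT cells with a Ccl7 UMI also had a Ccl2 UMI, against 32.5% of those without; in KO the shares were 81.0% of 536 and 29.8%. Most cells with Ccl7 also had Ccl2, while 21.2% of WT and 31.7% of KO cells with Ccl2 had Ccl7.

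Ccl12 was highest in the macrophages led by C1q genes. Cluster 12 had 1716 CPM in WT (95% interval 1575 to 1867) and 3211 CPM in KO (95% interval 3049.5 to 3379), and cluster 6 had 572 and 1645 CPM. The interferon cluster 4 had 311 and 296, cluster 3 161 and 195, the Arg1 cluster 1 131 and 216, and cluster 2 had 15.4 and 25.3. The stromal or tumour-like cluster, rich in Ccl2, had 1 Ccl12 UMI in WT and 2 in KO. Of the WT cells with a Ccl12 UMI after thinning, 65.8% had Ccl2 and 9.91% had Ccr2, against 34.8% and 15.6% of those without; in KO they were 64.9% and 10.9% against 32.8% and 12.3%.

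Ccl8 was highest in the same pair of clusters, with 146 and 226 CPM in cluster 12 and 114 and 127 in cluster 6. The other lineage clusters had 0.220 to 6.18 CPM in WT and 4.32 to 44.3 CPM in KO. In cluster 2 a single WT cell had a Ccl8 UMI. The tenth of monocytes and macrophages with the most Ccl8 held all of its UMIs in both matrices, and a single cell held 110 of 440 in WT and 141 of 1419 in KO.

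At a finer resolution (11 monocyte and macrophage states) the Ccl2 and Ccl7 maximum lay in a state led by Arg1, Pf4, F13a1 and Cxcl1 (339 WT and 703 KO cells), with 3703 and 2388 CPM of Ccl2 and 885 and 865 CPM of Ccl7. Ccl12 there was 166 and 284 CPM. The monocyte-like states differed in Ccl2 as well: the classical one, led by Chil3, had 678 and 656 CPM, and the non-classical one, led by Ace and Treml4, had 284 and 328. The other monocyte-like states were higher. The one led by Cacna1d and Plcb1 had 1968 and 2003 CPM of Ccl2, and 121 and 496 CPM of Ccl7. The one led by Ifit2 had 1724 and 1336 CPM of Ccl2. A state led by Cxcl9 and Ly6i (85 WT and 373 KO cells) had 6.48 and 51.7 CPM of Ccl8, and the Mgl2 and Mmp12 state had 1036 and 443 CPM of Ccl2. Ccr2 also separated the classical state, with 349.5 and 284 CPM, from the non-classical state, with 171 and 122 CPM. The Cacna1d state had 245 and 171 CPM of Ccr2, and the Ifit2 state 170 and 154.

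**Figure D3:**
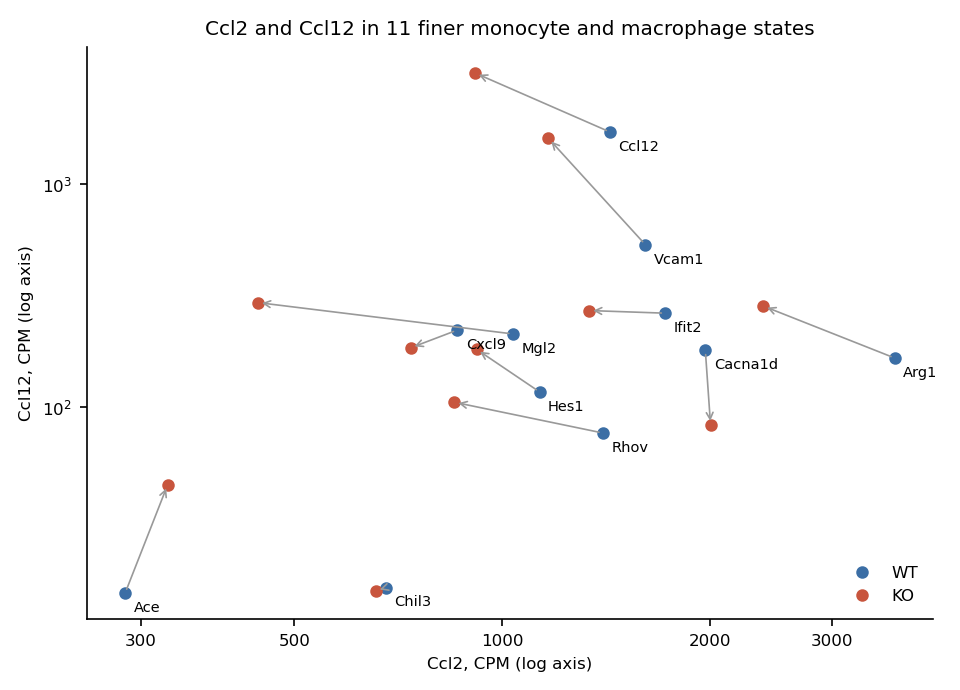
Ccl2 (horizontal) against Ccl12 (vertical), both in CPM on log axes, in 11 finer monocyte and macrophage states named by their leading gene; arrows run from the WT to the KO value. Ccl2 is highest in the Arg1 state and Ccl12 in the Vcam1 and Ccl12 states. By Poisson intervals, which cover counting error only, KO lies apart from WT in 8 of 11 states for Ccl2, all lower. For Ccl12 it does so in 8, 7 higher and 1 lower. The share of all genes apart by this rule was not computed. Of these 7, the Ace (4.49% and 3.93%) and Mgl2 (35.0% and 33.2%) states had Ccl12 in a smaller share of KO than WT cells, and the others in a larger share.

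Ccr2 had its highest level of the 21 clusters outside the myeloid cells. The T-like cluster 0, led by Foxp3, the defining factor of regulatory T cells, had 328 CPM in WT (95% interval 312 to 345) and 361 CPM in KO (95% interval 346 to 377). The monocyte-like cluster 2 followed in WT with 279 and 231 CPM, NK cluster 19 with 245 and 219 and the T-like cluster 10 (Il23r, Il17a and Trdc) with 202 and 230.1. The intervals of clusters 2 and 19 and those of clusters 19 and 10 overlapped in WT, and those of clusters 2, 10 and 19 in KO. The CD8 T clusters 9 (Gzmk) and 17 (Gzmf) had 66.9 and 114, and 32.9 and 29.5 CPM, and dendritic-like cells 52.6 and 79.0. Within the lineage, clusters 3 (175 and 149), 1 (174 and 141), 4 (155 and 138) and 6 (108 and 138) lay between, and Ccr2 was lowest in cluster 12 (72.8 and 80.5 CPM), where Ccl12 and Ccl8 were highest. The Ccr2 level of cluster 12 rests on 23 WT and 37 KO UMIs. In WT the intervals of clusters 12 and 6 overlapped for both Ccr2 and Ccl8. Outside the lineage Ccr2 was lowest in neutrophil-like cells with 12.5 and 12.2 CPM, the T-like cluster 8 (S1pr1, Tcf7 and Lef1) with 16 and 15.4, and the stromal or tumour-like cluster with 2 and 0 UMIs. Ccr1 had its highest level in neutrophils (1168 and 1084 CPM), where Ccr2 was low, and Ccr8 in cluster 0 (42.1 and 35.6 CPM).

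Between the matrices, the 6 lineage clusters together had less Ccl2 in KO (1337 to 1098 CPM, a log2 ratio of -0.28) and more Ccl12 (194 to 508 CPM, 1.37), the directions of the macrophage libraries. Ccl7 went from 274 to 349 CPM (0.35) and Ccr2 from 183 to 156 CPM (-0.22), both against the direction in the libraries. Ccl8 went from 15.1 to 48.1 CPM (1.40), where the libraries gave no call and a lower mean in KO. Macrophage-like cells alone had log2 ratios of -0.46 for Ccl2, 0.19 for Ccl7, 1.30 for Ccl8, 1.74 for Ccl12 and -0.19 for Ccr2, and monocyte-like cells had -0.32, -0.51, 1.04, -0.28 and -0.19 in that order; the signs for Ccl7, Ccl8 and Ccl12 in monocyte-like cells changed with the cell filter or the resolution. The 6 clusters together were chosen as a class after the data were seen. Ratios carry a pseudocount of 5 CPM. Neither matrix has a replicate, so the ratios carry no test, and the libraries and the matrices came from differently selected cells.

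By cluster, Ccl2 was lower in KO in 5 of 6 with intervals apart, by most in cluster 3 (-0.91) and by least in cluster 1 (-0.36); in cluster 2 the intervals overlapped. Ccl12 was higher in 5 of 6, by most in cluster 6 (1.51), and its intervals overlapped in cluster 4. In cluster 2, 1 KO cell held 42 of the 117 KO UMIs of Ccl12, against 70 UMIs in all WT cells. The Ccl12 rise in cluster 2 therefore rests largely on 1 cell. Ccl7 was higher in clusters 1 (0.49) and 12 (0.53) and lower in clusters 3 (-0.32), 4 (-0.32) and 6 (-0.50). Ccr2 was lower in clusters 1 (-0.29), 2 (-0.27) and 3 (-0.22) and higher in cluster 6 (0.33). Ccl8 was higher in clusters 1, 2, 3 and 4, by up to 2.14 in cluster 1, from 6.18 to 44.3 CPM, with 1 KO cell holding 77 of its 380 UMIs. A single KO cell also held 10 of 20 Ccl8 UMIs in cluster 2, 73 of 152 in cluster 3 and 16 of 37 in cluster 4. The higher Ccl8 levels of these clusters therefore rest on few cells. Cells of cluster 6 were deeper in KO (median 21129 against 14330.5 UMIs). Thinned to 1000 UMIs, 24.3% (17.8 to 32.0) of WT and 44.4% (38.3 to 50.6) of KO cells of cluster 6 had a Ccl12 UMI.

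**Figure D4:**
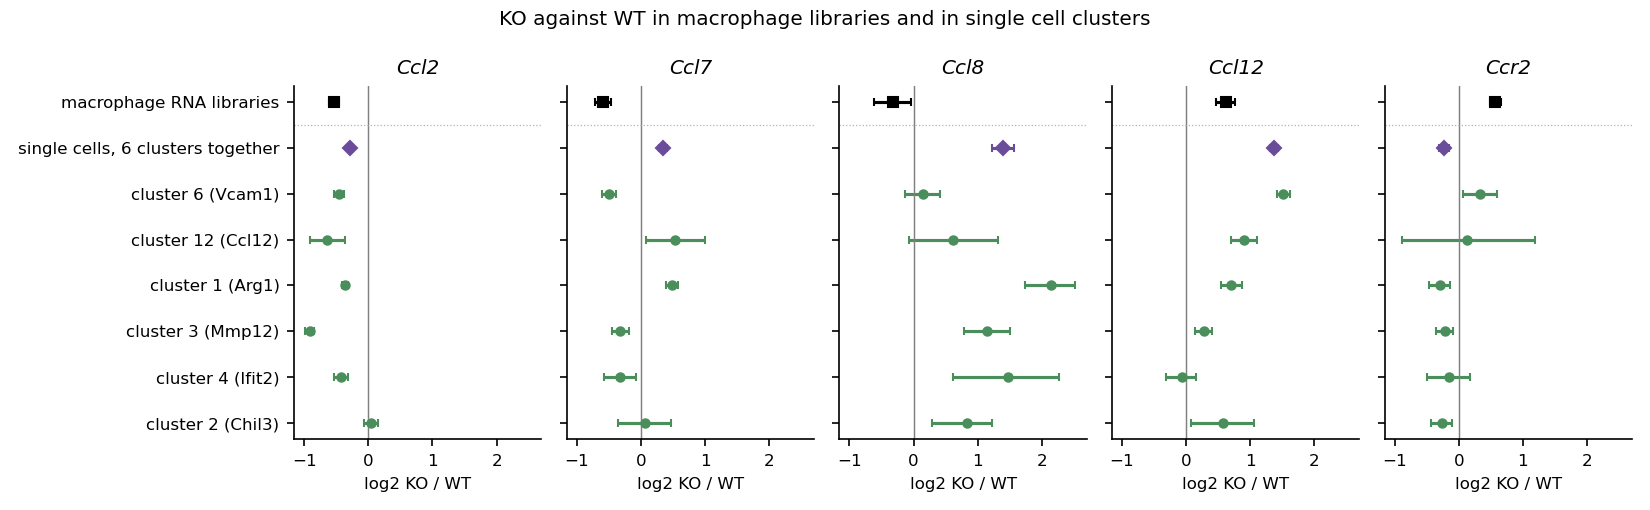
Log2 ratio of KO to WT for each gene: squares are the macrophage RNA libraries with 95% intervals from 3 libraries per genotype, diamonds the 6 single cell clusters together and circles each cluster, with intervals from Poisson counting error only. Ccl2 lies left of 0 and Ccl12 right of 0 in the libraries and in the 6 clusters together, whereas Ccl7 and Ccr2 change sides between these. The circles of cluster 2 for Ccl2 (0.05) and cluster 4 for Ccl12 (-0.07) lie on the other side of 0, with overlapping WT and KO intervals.

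The clusters also took different shares of the lineage. Cluster 1 made up 28.7% of lineage cells in WT and 38.5% in KO, cluster 3 36.3% and 24.8%, cluster 6 3.86% and 7.23%, and cluster 12 2.87% and 3.83%. With the KO levels of each cluster set into the WT mix of UMIs, the log2 ratios became -0.51 for Ccl2, -0.02 for Ccl7, 0.91 for Ccl8, 0.76 for Ccl12 and -0.21 for Ccr2. With the WT levels in the KO mix they were 0.17, 0.38, 0.72, 0.31 and -0.06 in the same order. The Ccl7 value of -0.02 is a net of clusters with higher and clusters with lower levels in KO. Cluster 1 held 30.5% of all Ccl7 UMIs in WT and 46.8% in KO, and cluster 6 held 23.6% and 61.5% of those of Ccl12.

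**Figure D5:**
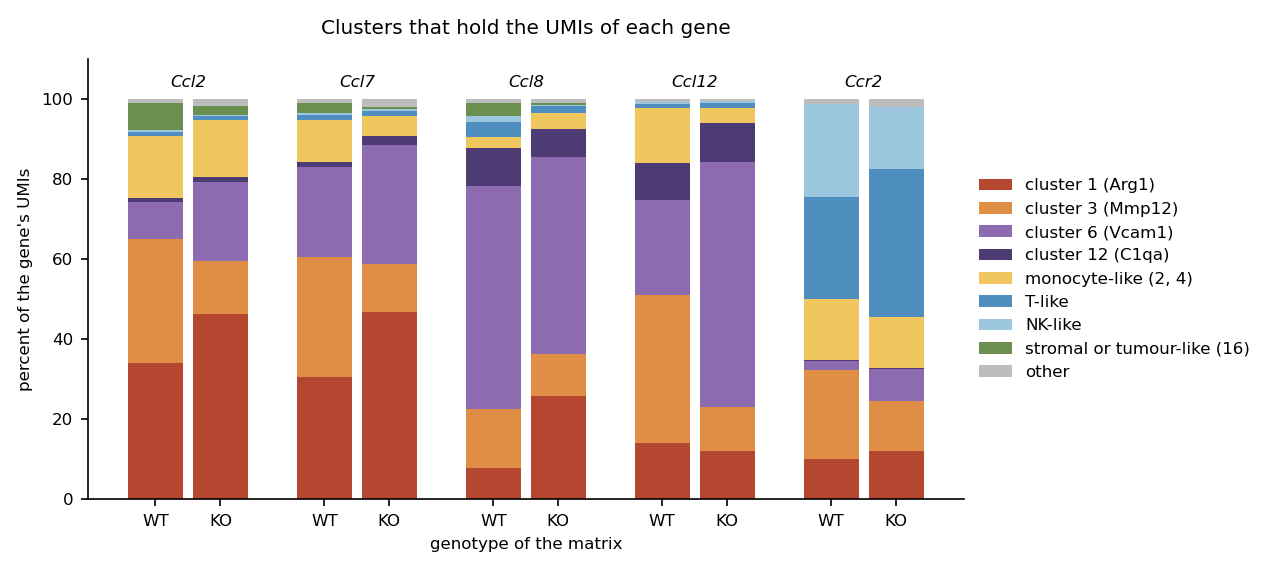
Share of each gene's UMIs (percent, stacked to 100) held by groups of single cell clusters in the WT and KO matrices. Cluster 6 holds 23.6% of Ccl12 in WT and 61.5% in KO, cluster 1 holds 34.0% and 46.4% of Ccl2, and Ccr2 has a large share in T-like and NK-like cells.

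In barcodes under 100 UMIs, which hold free RNA, Ccl2 stood at 727 CPM in WT and 543 in KO, Ccl7 at 139 and 184, Ccl8 at 14.4 and 38.8, Ccl12 at 91.9 and 186, and Ccr2 at 147 and 121. The direction matched that of the 6 clusters together for all 5 genes. In lymphocytes Ccr2 again differed by class: T-like cells had 111 CPM in WT and 127 in KO, and NK-like cells 188 and 152.

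Over the 20 WT clusters with at least 50 cells, the genes whose log2 levels were most like those of Ccl2 were Myof (r = 0.99, and 0.97 in KO), Nupr1, Parvb, Ltbr and Ccl7 (r = 0.97, 0.94 in KO), out of 9661 genes. Those most like Ccl7 were Mmp14 (r = 0.97, 0.94 in KO), Ccl2, Gm56768, Myof and Batf2. Those most like Ccl12 were C1qa (r = 0.98, 0.97 in KO), C1qb, Nr1h3, C1qc and Prxl2b, and those most like Ccl8 were Hebp1 (r = 0.96, 0.88 in KO), Ptgs1, Ms4a7, C4b and Gas6. Ccr2 had no close match: Gpr65, a proton-sensing receptor, came first with r = 0.79 (0.76 in KO), before Edem1, Cyp4v3, Tgfb1 and AI662270, and its r with Ccl2 was -0.11. In KO the likeness was much lower for Cyp4v3 with Ccr2 (r = 0.16, against 0.76 in WT) and for Ptgs1 with Ccl8 (0.60, against 0.95), and Edem1 and Tgfb1 had 0.60 and 0.61 with Ccr2. The other genes listed kept an r of at least 0.755 in KO. These clusters share 1 library per genotype and differ in depth, so r describes the pattern and carries no test.

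EGR2 CUT&Tag and ATAC-seq peaks, which mark where this transcription factor bound and where chromatin was open, were looked up near the 5 starts. No peak of the WT or KO EGR2 list lay with its centre within 10 kb of any of them; 7.09% of 20757 coding genes had such a peak in the WT list and 6.08% in the KO list, so that none near 5 genes is no result about them. The nearest EGR2 peak to Ccl2 was 121 kb upstream in the WT list (of 5408 peaks) and 607 kb upstream in the KO list (of 4995). For Ccr2 the nearest lay 60.5 kb upstream in WT and 60.1 kb in KO, and the nearest coding gene to both was Ccr3. In the merged ATAC list, peaks carry a genotype in their name, and whether a name means that the peak was called only in that genotype is not stated, so the names give no contrast between WT and KO. In it 1 peak named for WT (of 17476) lay 4.93 kb upstream of Ccl2 (chromosome 11, 82030389 to 82030889), and no peak named for KO (of 12713) lay within 10 kb of any of the 5 (20.2% and 15.1% of coding genes had a peak named for WT and one named for KO there, in that order). The nearest peak to Ccr2 in that list was 26.8 kb upstream among those named for WT and 63.9 kb among those named for KO. The EGR2 files hold 1 list per genotype and the ATAC file 1 merged list, while the labels name 3 samples per genotype for each assay, so no spread between replicates could be given. A list without a peak does not show that binding or open chromatin was missing.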

How the data were processed

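The members and gene lists were chosen with earlier results of these data known. Macrophage RNA was deposited as raw counts per gene, made by the authors with featureCounts 2.0.6 on GENCODE vM10 exons, per the file headers; strand was not used, and each read of a pair was counted, so low counts are mostly even. They were tested with edgeR 4.0.16 (filterByExpr, TMM, quasi-likelihood F-test, 2-sided, Benjamini-Hochberg) in R 4.3.3, with DESeq2 1.42.0 as an alternative, after a check on simulated data. The deposited single cell UMI counts hold all barcodes and came from Cell Ranger 8.0.1 (stated in the file headers). The cell filter required 500 genes, 1000 UMIs and a mitochondrial share of 10% or less; doublets called by Scrublet were removed (4.91% in WT, 3.16% in KO) and both matrices clustered (scanpy 1.11.5: Leiden resolution 1 on 15 neighbours over 30 components of 2000 variable genes). A cluster was named by its best marker score unless its 10 leading genes included more of another class's markers. Peak lists (mm10, per the submitters' processing notes) give the authors' score per peak; the peak caller is not given in the sources used here. Named genes are the members, the listed other receptors (1 is not reported here), up to 4 called genes per pathway list with the smallest adjusted p, and the 5 most alike per member (Pearson r of log2(CPM + 5)); Ccl3, Ly6c2 and Chil3 were named after their values were seen. H3K27ac, H3K4me1 and ChIP-seq samples were not analysed here. Exact Poisson intervals cover counting error only.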

Additional observations from a re-analysis of the deposited data

Results flagged for a closer look

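Ccl7 and Ccr2 differed in direction between the macrophage libraries and the single cell matrices. The log2 fold change of Ccl7 was -0.59 in the libraries and 0.35 in the 6 monocyte and macrophage clusters together, and that of Ccr2 was 0.57 and -0.22. All 3 KO libraries lay on the opposite side of WT from the KO matrix, and the difference was not tested.

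Ccl7 also differed in direction between clusters, with log2 ratios of 0.49 in cluster 1 and 0.53 in cluster 12 against -0.32 in cluster 3, -0.32 in cluster 4 and -0.50 in cluster 6. Ccr2 had 0.33 in cluster 6 against -0.29, -0.27 and -0.22 in clusters 1, 2 and 3, and 0.18 in T-like against -0.30 in NK-like cells. Each of these rests on 1 matrix per genotype, and none of the differences was tested.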

How the results depend on the processing

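In the macrophage libraries, Ccl2, Ccl7, Ccl12 and Ccr2 kept their direction and stayed called under DESeq2, other size factors, no filter, counts halved into pairs, and without any single library. Leaving out each library in turn gave log2 fold changes of -0.56 to -0.51 for Ccl2, -0.63 to -0.55 for Ccl7, 0.58 to 0.64 for Ccl12, 0.53 to 0.60 for Ccr2 and -0.43 to -0.20 for Ccl8, with 4 to 5 of the 5 genes and 3991 to 4587 of all genes called. Ccl8 was called only without WT replicate 2 (-0.39) and without KO replicate 3 (-0.43). Under DESeq2 the median over all genes was 0.11. Same-numbered libraries did not deviate together over all tested genes (r between -0.00484 and 0.0112). Libraries of different numbers were not compared and the labels do not say what a number shares, so pairing was neither shown nor excluded. With the replicate block, 4691 genes were called and Ccl2, Ccl8 and Ccr2 had log2 fold changes of -0.54, -0.34 and 0.57. Ccr8, never called, changed sign without WT replicate 2 (0.02) or 3 (0.20) and without KO replicate 1 (0.01) or 2 (0.22), with a value of -0.38 without KO replicate 3; the cause was not tested.

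The ratios of the 6 clusters together, a class added after the data were seen, changed little with the settings, except that a pseudocount of 1 CPM gave Ccl8 1.61. The named classes depended on which clusters fell into them. In macrophage-like cells the log2 ratios were Ccl2 -0.24, Ccl7 0.30, Ccl12 1.62 under the looser cell filter, Ccl12 1.85 under the stricter, Ccl2 -0.29, Ccl7 0.38, Ccl12 1.42 with doublets kept, Ccl2 -0.31, Ccl7 0.37, Ccl12 1.45 at Leiden resolution 0.5, Ccl2 -0.33, Ccl7 0.33, Ccl12 1.48 at resolution 2, and Ccl2 -0.56, Ccl7 0.0170, Ccl12 1.63 with the chemokines kept in the clustering, against main values of Ccl2 -0.46, Ccl7 0.19, Ccl12 1.74. In monocyte-like cells (main values Ccl2 -0.32, Ccl7 -0.51, Ccl8 1.04, Ccl12 -0.28) the looser filter turned Ccl7 to 0.52 and Ccl12 to 0.0170, resolution 2 gave Ccl2 -0.18, Ccl7 0.17, the stricter filter Ccl2 -0.19, Ccl8 -0.0533, resolution 0.5 Ccl2 -0.12, Ccl12 -0.0527, the kept chemokines Ccl2 -0.21, Ccl7 -0.30, and the pseudocount of 1 CPM Ccl8 1.81; the cause was not tested. In a 50 kb window the ATAC list had 4 peaks named for WT and 1 named for KO near the 5 starts, summed over genes, and in a 2 kb window 0 named for WT. Depth limits Ccl8 most, with 440 UMIs in the WT lineage cells.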
